A study of Culter alburnus with 9 samples.

Results

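Wild-type trunk muscle of 2-month-old topmouth culter (Culter alburnus), a freshwater carp relative, was described here by its transcripts alone. The members were chosen by their label: the 3 wild-type libraries (WT1, WT2 and WT3, the Ctrl group) of the 9 in the series, each from 1 fish. The other 6 libraries, from fish heterozygous or homozygous for a runx2b mutation, were not used. The 3 fish were unmutated F1 progeny of F0 parents that both carried the same type of runx2b mutation, received no treatment, and were chosen for comparable body size. Tissue came from the trunk between the gill cover and the start of the tail stalk, so that it held muscle with the myosepta, the connective sheets between muscle blocks in which intermuscular bones form. It was enriched for that region and was not purified myoseptum. With 1 group of 3 fish no test between groups was possible, and the comparisons below are between individual fish.

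Most of the trunk of a cyprinid is fast (white) muscle, which shortens quickly and is fuelled by phosphocreatine and glycolysis. Slow (red) muscle forms a thin layer under the skin and relies on mitochondria. In a muscle fibre, thick filaments of myosin slide along thin filaments of actin, tropomyosin and troponin when calcium leaves the sarcoplasmic reticulum. Parvalbumins, small soluble proteins that bind calcium, are abundant in fish fast muscle and speed relaxation. Expression is given in TPM, transcript abundance that the authors scaled for transcript length and to an equal sum per library, so that 10000 TPM are 1% of all transcripts counted.

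The table held 29791 loci, 28228 of them annotated genes and 1563 assembled from reads. Estimated counts per library were 17393921 in WT1, 15952748 in WT2 and 16117743 in WT3. At least 1 TPM was reached by 12197, 13096 and 9829 loci, while 6983 loci were at 0 in all 3 fish. WT3 stood apart. Across all loci, log2(TPM + 1) of WT1 and WT2 correlated with a Pearson r of 0.966 (Spearman rho 0.930), against 0.933 for each of them with WT3 (rho 0.893), where loci are not independent replicates. Its median locus was also lower: among the 12217 loci with a mean of at least 1 TPM, the median log2 ratio was 0.42 for WT1 over WT3 and 0.52 for WT2 over WT3, but -0.10 for WT1 over WT2. Scaling by TMM factors (1.12, 1.19 and 0.749), which assume that most loci are alike, removed most of this shift, and results that turn with that scaling are marked below. Names came from the annotation columns, and 5500 loci with no gene name held 5.15%, 5.05% and 4.81% of transcripts in WT1, WT2 and WT3.

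Few loci took most of the transcripts. The 10 most abundant loci of each fish held 38.9% of all TPM in WT1, 39.5% in WT2 and 49.7% in WT3, and 18, 19 and 11 loci sufficed for 50% of transcripts. To reach 90%, 481, 505 and 230 loci were needed. On average 16 loci exceeded 10000 TPM, 138 exceeded 1000 TPM and 2658 exceeded 10 TPM. WT3 was the most concentrated library, and without it the mean share of the top 10 was 39.2% in place of 42.7%.

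The most abundant locus was acta1, the skeletal muscle actin of the thin filament (ABG768_010362, chromosome 17, 37523059 to 37528971 in assembly GCA_040182925.1), with 5.73% of transcripts in WT1, 5.61% in WT2 and 6.60% in WT3 (5.98% ± 0.54, SD, n = 3). It held 95.2% of the transcripts of the 6 loci named as skeletal or cardiac actin. The next 2 were parvalbumin loci that neighbour each other on chromosome 3. PVALB ABG768_019945 (47020846 to 47022471) took 5.15%, 7.42% and 5.28% in the 3 fish, and PVALB ABG768_019944 (47013133 to 47018134) took 5.55%, 3.10% and 8.01%. The neighbours thus differed in which fish was highest, WT2 for the first and WT3 for the second. The 2 loci of the muscle creatine kinase CKM, which regenerates ATP from phosphocreatine, followed with almost equal means: ABG768_022702 on chromosome 5 had 4.99% ± 1.1 and ABG768_007529 on chromosome 15 had 4.96% ± 0.69 (SD, n = 3). Similar loci share reads, so the split within such pairs is less certain than their sum.

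**Figure D1:**
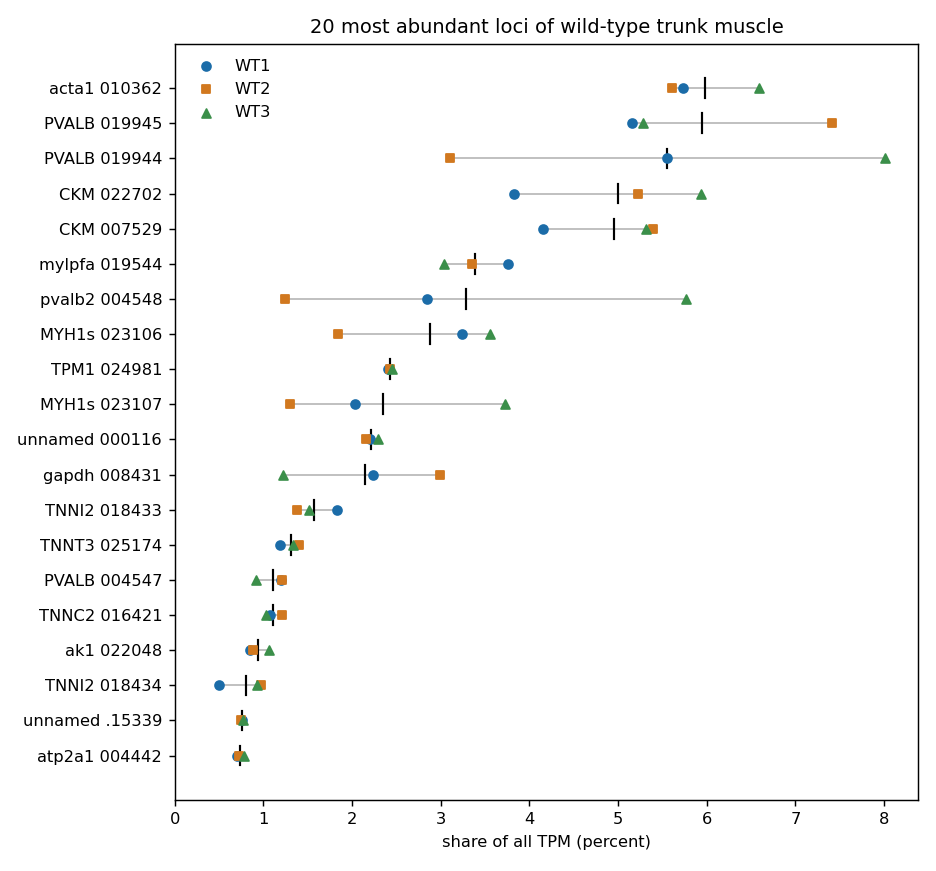
Share of all TPM (x axis, percent) of the 20 loci with the highest mean, 1 row per locus with the last 6 digits of its identifier; symbols are the 3 wild-type fish, the black bar is their mean and the grey line joins the lowest and the highest fish. The row of TPM1 is tight, at 2.40% to 2.46%, while pvalb2 spreads from 1.25% to 5.77%.

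The regulatory myosin light chain of fast muscle mylpfa (3.38% ± 0.36), the parvalbumin pvalb2 (3.29% ± 2.3), 2 fast myosin heavy chain loci named MYH1s (ABG768_023106 with 2.88% ± 0.92 and ABG768_023107 with 2.35% ± 1.2) and the tropomyosin TPM1 (2.43% ± 0.027) completed the first 10. The glycolytic enzyme gapdh (2.15% ± 0.89) stood at rank 12 behind a locus with no gene name. That locus, ABG768_000116 on chromosome 1 (3579945 to 3585102), had 2.20%, 2.15% and 2.29%, a range of 1.06-fold. A further 2 of the 30 most abundant loci had no gene name. MSTRG.15339, assembled from reads, had 0.754%, 0.744% and 0.774%, and ABG768_019524 on chromosome 3 had 0.487%, 0.444% and 0.649%. The 30 together held 55.8%, 55.5% and 66.4% of transcripts, and the others among them were the troponins TNNI2, TNNT3 and TNNC2, which switch the thin filament on by calcium, the adenylate kinase ak1, the calcium pump atp2a1, the glycolytic enzymes ENO3, pkm and PGAM2, the myosin light chain myl1, another parvalbumin, 2 more MYH1s loci, the ribosomal protein Rps2 and ybx1, which binds mRNA.

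Of these 30, 18 varied by less than 1.5-fold between the highest and the lowest fish, 7 varied by 2-fold or more and 2 by 4-fold or more. The range was always taken as the highest over the lowest TPM after adding 1. Troponin and tropomyosin loci stood among the narrow ones, with 1.02-fold for TPM1, 1.18-fold for TNNT3 (ABG768_025174) and 1.18-fold for TNNC2. The 2 wide ones were pvalb2 and the heavy chain MYH1s ABG768_023109.

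When loci were placed in classes, each locus once, muscle and energy classes held 62.3%, 61.1% and 69.1% of transcripts in WT1, WT2 and WT3, and with ribosomal proteins and elongation factors 80.0%, 80.1% and 85.5%. Contractile proteins were the largest class, at 27.2% ± 2.5 (SD, n = 3). Ribosome and elongation loci took 17.7% ± 1.3, parvalbumins 16.1% ± 3.6, phosphate energy transfer 11.1% ± 1.8, glycolysis and glycogen 4.80% ± 1.8, nuclear-encoded mitochondrial energy genes 3.81% ± 0.83 and calcium handling 1.15% ± 0.064. Parvalbumins thus took more transcripts than phosphate energy transfer, but this order depends on scaling by length. Counted as reads, contractile proteins held 35.9%, phosphate energy transfer 13.5%, parvalbumins 7.75% and the ribosome class 6.70%.

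**Figure D2:**
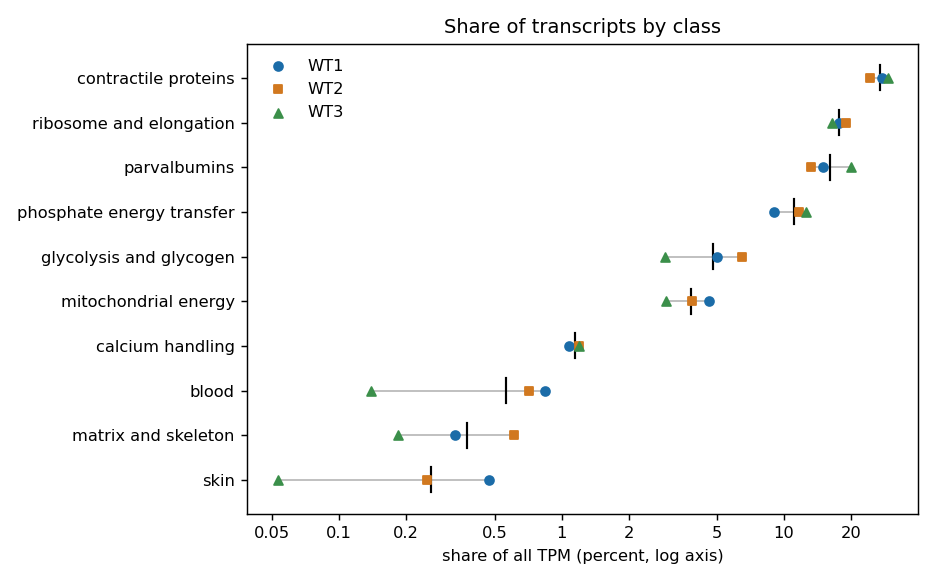
Share of all TPM (x axis, percent, log axis) of 10 classes of loci, each locus counted once; symbols are the 3 wild-type fish and the black bar is their mean. Contractile proteins lie between 24.5% and 29.4%, whereas the skin class runs from 0.0530% in WT3 to 0.470% in WT1.

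The thin filament was steady in TPM. Its 34 loci summed to 14.0%, 14.2% and 14.6% of transcripts, while the 51 loci of the thick filament list, mostly fast types, summed to 11.4%, 8.55% and 13.3%. Under TMM scaling WT3 was highest for both, by 1.64-fold over the lowest fish for the thin and 2.47-fold for the thick filament. Within the thick filament the myosin heavy chains carried the difference. The 15 loci named MYH1s, the fast skeletal heavy chain that forms the motor of the fibre, held 6.51%, 4.03% and 8.95% of transcripts. Of these, 5 lie together on chromosome 5 between 38155605 and 39059023 and supplied 95.9%, 84.4% and 96.2% of the MYH1s transcripts in WT1, WT2 and WT3. WT2 was lowest for that cluster and highest for another group on chromosome 10, in which MYH1s ABG768_001432 (81489 to 94351) stood at 532.6, 3851 and 1013 TPM and its neighbour ABG768_001431 at 81.2, 872 and 178 TPM. The direction was thus opposite between the cluster on chromosome 5 and these 2 loci of the same gene family. The next locus on chromosome 10, ABG768_001433, was far lower and highest in WT1, with 20.6, 19.6 and 10.9 TPM. Genes of one family can share reads, and how such reads were assigned is not given in the sources used here.

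One heavy chain in the cluster needs its counts beside its TPM. It is part of the thick filament, MYH1s and cluster sums above, with 0.452%, 0.0068% and 0.863% of transcripts in WT1, WT2 and WT3. MYH1s ABG768_023109 (chromosome 5, 39048511 to 39059023) had 4519, 67.7 and 8627 TPM, but 4155, 1351 and 5037 estimated counts, so that its TPM range of 126-fold was 3.66-fold in counts scaled to library size. Its TPM per count differed 34.9-fold between fish. Among the 4803 loci with at least 100 counts in every fish, 40 differed by 1.5-fold or more in this ratio and only this one by 4-fold or more.

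A call of variation was made where the range reached 4-fold, which 815 of the 12217 loci with a mean of at least 1 TPM did (6.67% called). This share is the background against which each group is read. WT1 and WT2 alone differed by 4-fold in 224 loci, 86 higher in WT1 (0.704%) and 138 higher in WT2 (1.13%). Against WT3, 406 loci were higher in WT1 (3.32%) and 137 lower (1.12%), and 420 were higher in WT2 (3.44%) and 118 lower (0.966%). The lowest fish was WT3 in 508 of the 815 called loci (4.16% of those tested), WT1 in 212 (1.74%) and WT2 in 95 (0.778%). The highest was WT1 in 347 (2.84%), WT2 in 325 (2.66%) and WT3 in 143 (1.17%). Under TMM scaling 717 loci were called, with WT3 lowest in 353 (49.2% in place of 62.3%) and highest in 222 (31.0% in place of 17.5%). The count also depends on low levels. It was 1721 when 0.1 was added in place of 1, 224 when 5 was added and 347 over the loci with at least 100 counts in some fish.

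**Figure D3:**
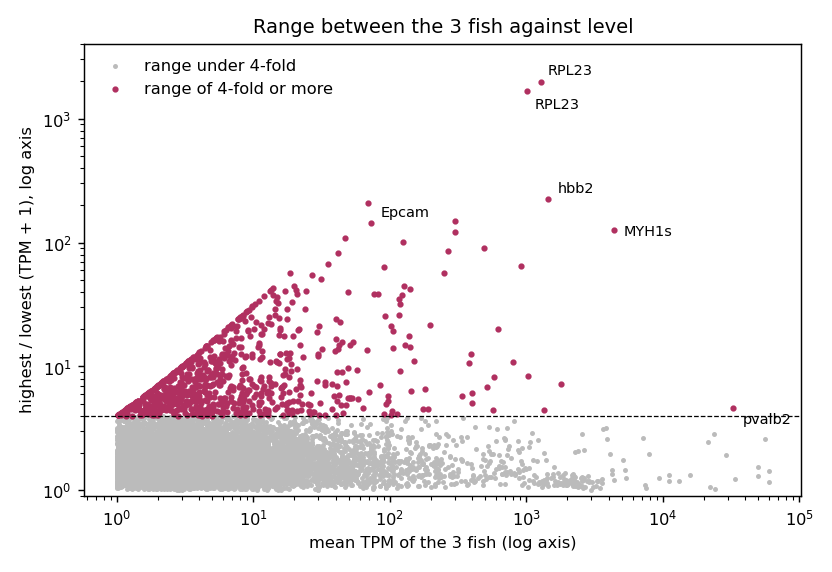
Range between fish (y axis, highest over lowest TPM + 1, log axis) against the mean TPM of the 3 fish (x axis, log axis) for the 12217 loci with a mean of at least 1 TPM. Red points are the 815 loci at or above the dashed line of 4-fold; most lie at low levels, and 2 RPL23 loci, hbb2 and MYH1s stand far above loci of similar level.

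In the contractile lists 13 of 144 loci tested were called (9.03%, against 6.67% of all loci). Over all 815 called loci 347 were highest in WT1, 325 in WT2 and 143 in WT3 in TPM. Of the 13, 7 were highest in WT2, 5 in WT1 and 1 in WT3, under either scaling. The 1 of WT3 was MYH1s ABG768_023109, with the uneven TPM per count described above. Those of WT2 were MYH1s ABG768_001431 and ABG768_001432, Tnni2, Mybpc2 ABG768_019451, MYBPH ABG768_016062, TPM1 and MYOZ2 ABG768_015502. Tnni2 ABG768_025171, a fast troponin I on chromosome 7 (21153470 to 21156772), had 21.9, 351 and 2.48 TPM. Mybpc2, the fast form of myosin-binding protein C, had 25.5, 272 and 18.3 TPM at that locus, and 146, 226 and 91.4 TPM at ABG768_016964, which was not called. A less abundant TPM1 locus (ABG768_018346) had 119, 981 and 76.2 TPM. MYOZ2 ABG768_015502, a Z disc protein known from slow and cardiac fibres in mammals, had 10.3, 33.9 and 4.09 TPM, the lowest of 4 loci of that name. The most abundant of them, ABG768_025813, varied by 1.26-fold. In each of the called loci WT2 lay above both other fish. In calcium handling 3 of 32 loci tested were called (9.38%), 1 highest in each fish. In the parvalbumin list 2 of 8 were called (25%), 1 highest in WT2 and 1 in WT3. Those highest in WT2 were Sln and OCM. Sln, whose product restrains the calcium pump in mammals, had 185, 704 and 122 TPM, and OCM, a parvalbumin relative assembled from reads, had 1.01, 30.3 and 1.49 TPM from 6, 159 and 8 counts.

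The 5 called loci highest in WT1 were 4 actins and a light chain. Both loci named act2, annotated as muscle actins, had 769, 27.4 and 7.94 TPM (ABG768_005688, chromosome 13, 22985940 to 22989660) and 318, 22.1 and 8.09 TPM (ABG768_001081, chromosome 1). The light chain mylpfb had 2174, 674 and 257 TPM, whereas its much more abundant paralogue mylpfa varied by 1.23-fold. In WT1 the minor copies of actin and light chain thus lay above both other fish, while the main actin, acta1, was highest in WT3 with a range of 1.18-fold.

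Slow and cardiac-type muscle genes made up 1.02% ± 0.40 of transcripts (SD, n = 3) and descended in the order WT1, WT2, WT3 with 1.44%, 0.962% and 0.657%. For every 100 transcripts of the thick and thin filament lists there were 5.69, 4.23 and 2.35 of the slow list. The thick filament list also held 6 loci annotated as slow or cardiac types, led by MYBPC3 and MYH6 ABG768_016923, with 441, 248 and 326 TPM in sum. Counted with the slow list, a choice made after seeing the data, they gave 5.87, 4.34 and 2.47. Its most abundant members were the light chains MYL10, with 6008, 3533 and 1866 TPM, and MYL4, with 3688, 2436 and 1742 TPM, followed by the slow and cardiac troponin C Tnnc1 (1169, 891 and 682 TPM) and the troponin T TNNT2 (842, 657 and 637 TPM). Of 31 members tested 1 was called, 3.23% against 6.67% of all loci. WT3 was lowest for 23 of the 31, which at 74.2% was close to the 74.5% of all loci tested. Under TMM scaling it was lowest for 9 (29.0%, against 40.4%). After TMM scaling the lowest sum was that of WT2, and WT1 stayed highest. Bulk tissue cannot tell fewer fibres of a type from less of its RNA per fibre, here and in the groups below.

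Parvalbumins held 15%, 13.3% and 20.1% of transcripts, and 3 of 10 loci supplied 91.7% of them. The locus pvalb2 (ABG768_004548, chromosome 12, 15525927 to 15527818) was at 28449, 12483 and 57666 TPM, so that WT3 stood 4.62-fold above WT2. Its neighbour PVALB ABG768_004547 (15521885 to 15523723) was at 11998, 12098 and 9147 TPM, a range of 1.32-fold. Pairs of adjacent parvalbumin loci thus held a narrower and a wider member on both chromosomes 3 and 12. WT3 stayed highest and WT2 lowest in sum under TMM scaling.

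Genes of phosphate energy transfer summed to 9.04%, 11.7% and 12.5% of transcripts, and 3 of the 15 loci, both CKM loci and ak1, carried 98.1% of that. AMPD1, the muscle AMP deaminase, had 1160, 1497 and 1564 TPM. The mitochondrial creatine kinase CKMT2 (ABG768_003083) was far lower, with 365, 286 and 128 TPM, and had the opposite order of fish. Calcium handling was led by atp2a1, the calcium pump of fast fibres, with 7070, 7253 and 7782 TPM. The calcium store protein CASQ1 had 893, 1124 and 1556 TPM, the junction protein JPH1 had 460, 593 and 538 TPM, and ATP2A2, the pump known from slow and cardiac muscle, had 621, 512 and 313 TPM. The fast-fibre pump varied by 1.10-fold in TPM, and the other pump was lowest in WT3. Under TMM scaling the sum of the group was highest in WT3.

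In TPM, glycolysis varied more in sum than phosphate energy transfer (1.38-fold) or the mitochondrial lists, but under TMM scaling phosphate energy transfer varied more (2.07-fold). Its 50 loci took 4.99% of transcripts in WT1, 6.51% in WT2 and 2.91% in WT3, a 2.24-fold difference, and gapdh supplied 44.8%, 46.0% and 42.0% of that. Of 40 members tested, 38 were lowest in WT3 (95.0%, against 74.5% of all loci tested). The median member had a log2 ratio of 0.89 for WT2 over WT3, against 0.52 over all loci. gapdh had 22364, 29953 and 12203 TPM, and the muscle enolase ENO3 had 6799, 10561 and 3989 TPM. Called were ldha, the lactate dehydrogenase of muscle (713, 729 and 107 TPM), tpi1b (1607, 1963 and 437 TPM) and PGM1 (229, 278 and 60.9 TPM), 3 of 40 or 7.50%. Of the 2 members not lowest in WT3, 1 was the pyruvate kinase pkm, which had 4764, 6025 and 5432 TPM. With TMM scaling the list remained lowest in WT3 but the difference narrowed to 1.41-fold, and 29 of the 40 members (72.5%) were lowest in WT3 against 40.4% of all loci.

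Nuclear genes of oxidative phosphorylation, which encode most subunits of the respiratory chain, took 2.94% ± 0.72 of transcripts (SD, n = 3), with 3.69%, 2.87% and 2.25% in the 3 fish. Complex V, the ATP synthase, held 1.10% ± 0.28, complex IV 0.801% ± 0.18, complex I 0.760% ± 0.18, complex III 0.246% ± 0.068 and complex II 0.0337% ± 0.0081. The order of WT1, WT2 and WT3 was the same in all 5 complexes. Of 119 members tested, 106 were lowest in WT3 (89.1%, against 74.5% of all loci tested). That order did not outlast TMM scaling, under which WT2 was lowest in sum. WT3 was then lowest for 16 of the 119 (13.45%, against 40.4% of all loci tested). WT1 was highest under both. Only 3 members were called (2.52%), all at low levels, such as UQCRH ABG768_013051 with 5.30, 7.74 and 0.22 TPM. The most abundant members, ATP5MC3 with 1729, 1718 and 1267 TPM and Atp5mf with 1449, 1063 and 820 TPM, varied by less than 2-fold. Citrate cycle genes, led by IDH2 with 2144, 2566 and 1890 TPM, had 0 of 19 called. Myoglobin, the oxygen store of red muscle, was listed at 9.48, 4.76 and 6.12 TPM (mb, ABG768_001130). No locus matched the list of genes of the mitochondrial genome, which is not analysed here.

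Cytosolic ribosomal proteins took 16.9%, 18.0% and 15.7% of transcripts. They were spread evenly: 78 of the 98 tested had a mean of at least 1000 TPM, the median was 1876 TPM and the largest, Rps2, held 2.58% of the group. They were also uniform between fish, with 95 of 98 varying by less than 2-fold, 2 called (2.04%) and 1.15-fold between the highest and lowest sum. Under TMM scaling, which raises the values of WT3 against those of the other fish, 91.8% of them became highest in WT3 and the sum became highest there too. The 2 called loci were the 2 copies of RPL23, and they had the widest ranges of all loci with a mean of at least 10 TPM. RPL23 ABG768_019571 (chromosome 3, 34586687 to 34589913) had 0.08, 1704 and 2115 TPM, from 0.43, 8609 and 10952 estimated counts. RPL23 ABG768_011651 (chromosome 19, 13129145 to 13132392) had 2240, 803 and 0.35 TPM, from 12761, 4054 and 1.83 counts. WT1 thus had reads almost solely at the copy on chromosome 19, WT3 almost solely at the copy on chromosome 3, and WT2 at both. The summed TPM of both copies was 2240, 2507 and 2116, a 1.19-fold difference.

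**Figure D4:**
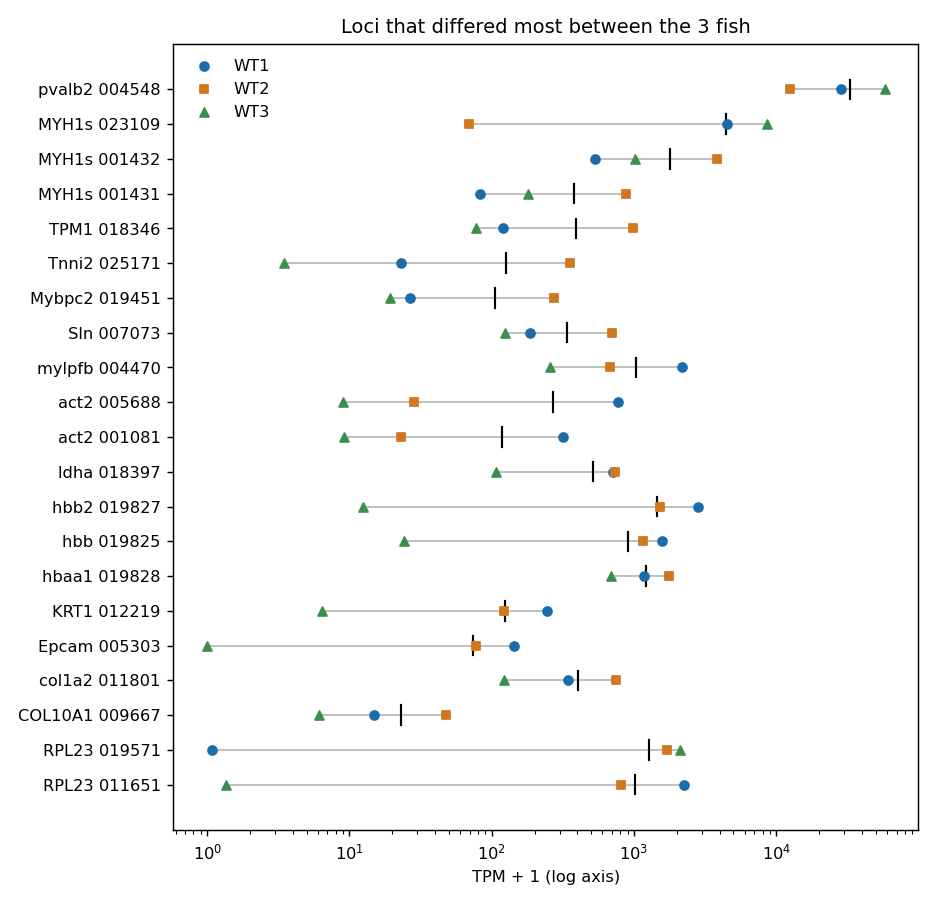
TPM + 1 (x axis, log axis) of 21 loci chosen from the named members, 1 row per locus with the last 6 digits of its identifier; symbols are the 3 wild-type fish and the black bar is their mean. The rows show the separate orders of the fish: WT2 highest for MYH1s ABG768_001432 and Tnni2, WT1 highest for the act2 loci, WT3 lowest for hbb2, KRT1 and Epcam, and the 2 RPL23 copies in mirror image.

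Other pairs of copies also had reads at different loci in different fish, without the steady sum of RPL23. The small heat shock protein hsp30 had 44.3, 26.4 and 0.55 TPM at ABG768_019564 and 0, 25.1 and 18.2 TPM at ABG768_011657, which summed to 44.3, 51.5 and 18.8 TPM, a 2.74-fold difference. The former lies in the same window of chromosome 3 as an RPL23 copy and the latter in the window of the other copy on chromosome 19, and the 2 windows, looked up after the values were seen, carry 10 gene names in common. For hsp30, in contrast to RPL23, WT1 had its reads at the copy on chromosome 3. The cell adhesion molecule Epcam, a marker of epithelium, had 143, 76.7 and 0 TPM at ABG768_005303 (chromosome 13, 10111621 to 10113717) and 0, 0 and 24.1 TPM at ABG768_005315 (10467452 to 10469527), from 2559, 1210 and 384 counts in sum. The Epcam sum differed 5.94-fold. In all, 22 loci were under 0.5 TPM in at least 1 fish and at 20 TPM or more, with 100 counts or more, in another. WT3 was the low fish for 18 of them, WT1 for 5 and WT2 for 2. Among the 20 loci with the widest ranges, tmem258 had 43.9, 49.9 and 0 TPM and FTH1 ABG768_019505 had 81.6, 43.5 and 0 TPM. A further 4 of those 20, 3 loci named RNH1 and Prss57, rested on fewer than 10 counts in every fish, on sequences of 159 to 174 bases.

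The markers of other cell types came to small shares, with large differences between fish. Haemoglobin and red cell genes took 0.839%, 0.710% and 0.138% of transcripts, a 6.07-fold difference, and 9 of the 12 tested were called (75.0%, against 6.67% of all loci). The globin genes on chromosome 3 lie between 43563532 and 43611387 and differed in how far WT3 lay below the other fish. hbb2 ABG768_019827 had 2805, 1526 and 11.4 TPM, hbb ABG768_019825 had 1563, 1147 and 23 TPM, HBA had 915, 536 and 9.13 TPM and hba2 had 541, 358 and 2.62 TPM. A less abundant hbb2 locus, ABG768_019829, had 48.9, 17.6 and 11 TPM. Inside the same cluster hbaa1 ABG768_019828 had 1167, 1770 and 689 TPM, a range of 2.57-fold. An assembled beta globin, ba2 (MSTRG.2137), was similar with 1032, 1529 and 617 TPM. hbaa1 and ba2 together supplied 26.3%, 46.6% and 94.6% of globin transcripts in WT1, WT2 and WT3.

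Skin markers followed the order WT1, WT2, WT3 in sum. The keratin list, intermediate filaments of epithelial cells, summed to 3709, 1922 and 379 TPM, 9.78-fold between the extremes. Of 16 members tested 12 were called (75.0%), 11 of them highest in WT1. The order of the sum was that of 11 of the 16 members, against 29.6% of all loci tested. Among the others, krt8 ABG768_015869 was highest in WT2, with 145, 154 and 56.1 TPM. The remaining skin list summed to 989, 567 and 150 TPM, with 35 of 50 called (70.0%). krt8 (MSTRG.15068) had 1292, 502 and 63.4 TPM, KRT1 ABG768_012218 had 1088, 529 and 131 TPM and the tight junction gene CLDN4 (ABG768_015357) had 87.7, 33.8 and 4.99 TPM. Together these lists held 0.257% ± 0.21 of transcripts (SD, n = 3), and 0.359% without WT3. The order was kept under TMM scaling. The act2 loci and the slow list were also highest in WT1, and what part tissue other than fast muscle had in those values was not tested.

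Connective tissue genes had a different order, with WT2 highest. Collagens summed to 1566, 3104 and 779 TPM, a 3.99-fold difference, with 7 of 53 tested called (13.2%). The genes of collagen I, the main fibre of tendon and bone, led them: COL1A1 ABG768_019221 had 468, 1006 and 226 TPM, col1a2 had 341, 747 and 120 TPM, and COL1A1 ABG768_004170 had 292, 584 and 150 TPM. COL10A1 ABG768_009667, collagen X, had 13.8, 46.8 and 5.09 TPM. The tendon and myoseptum list summed to 1439, 2296 and 729 TPM with 6 of 49 called (12.2%), all 6 highest in WT2. SPARC, a matrix protein that binds collagen, had 462, 877 and 267 TPM, the proteoglycans DCN and LUM had 142, 192 and 78.3 TPM and 98.6, 142 and 43.9 TPM, and CLEC3B had 110, 131 and 31.2 TPM. Of the 102 loci of both lists, 85 were highest in WT2 and 77 were so under TMM scaling (54.8% and 33.7% of all loci tested were highest in WT2).

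**Figure D5:**
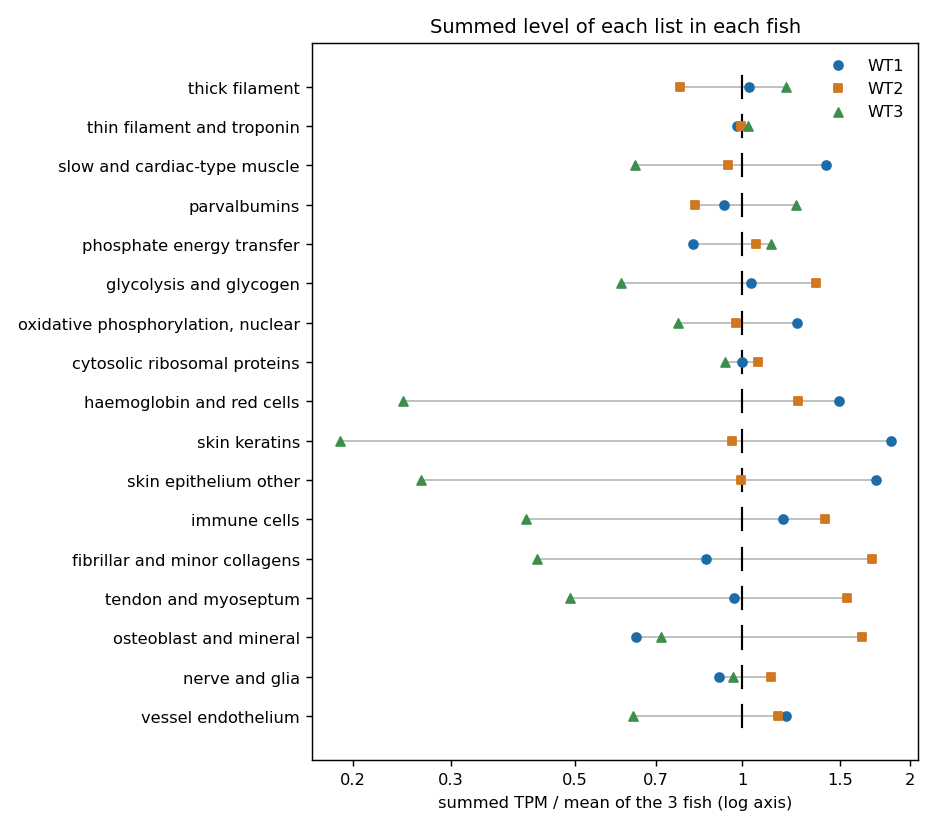
Summed TPM of each gene list divided by the mean of the 3 fish (x axis, log axis); symbols are the 3 wild-type fish and the black bar marks the mean, 1. The thin filament and the ribosomal proteins lie near 1 in all 3 fish, keratins, other skin genes and haemoglobins spread widely with WT3 lowest, and collagen, tendon and osteoblast lists are highest in WT2.

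Bone genes were present at low levels apart from osteocalcin (bglap), which stood at rank 263 of all loci by mean TPM. The osteoblast and mineral list summed to 232, 591 and 257 TPM, and bglap, osteocalcin, which binds mineral in bone matrix, supplied 73.7% of it with 164, 448 and 184 TPM. mgp, an inhibitor of calcification, had 18.3, 17.9 and 20.1 TPM. IFITM5, a protein of bone-forming cells, had 1.64, 13.8 and 3.11 TPM and was called, but from only 4, 30 and 7 counts. Also called were 2 loci named COL10A1, which made 3 of 15 (20%). Of these 2, ABG768_007121 has as its best protein hit a complement C1q tumor necrosis factor-related protein 7, not collagen X. The osteoclast list summed to 29.9, 43.1 and 11.5 TPM, with CTSK, a collagen-cleaving protease, at 19.4, 24.8 and 7.01 TPM. The cartilage list summed to 175, 266 and 135 TPM. runx2b itself, the regulator of osteoblasts edited in the series, was at 0.60, 1.66 and 0 TPM (ABG768_014534) from only 11, 27 and 0 counts, and its paralogue RUNX2 on chromosome 17 at 0.34, 0.53 and 0.28 TPM from 11, 15 and 8 counts.

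The nerve, vessel and myogenic lists varied less in TPM than the skin, haemoglobin and collagen lists. The nerve and glia list summed to 459, 571 and 488 TPM with 0 of 22 called, led by 2 loci of the myelin protein mbp (175, 206 and 191 TPM, and 92.9, 102 and 95.5 TPM). Vessel endothelium summed to 93.8, 90.7 and 49.7 TPM with 0 of 17 called. The list of satellite cells and myogenic factors summed to 256, 305 and 269 TPM with 1 of 23 called, igf2. It held the transcription factors MEF2C (57.8, 48.4 and 59.2 TPM), six1b (28.7, 28.5 and 27.7 TPM) and MEF2A (29.7, 44.0 and 44.4 TPM). Under TMM scaling this list and the nerve and glia list became highest in WT3, 1.57-fold and 1.59-fold above WT1, the lowest fish. Immune genes summed to 676, 805 and 234 TPM with 20 of 62 called (32.3%), 15 of them highest in WT2. The largest were the antigen presentation genes CD74 (133, 114 and 47.2 TPM) and b2m (92.8, 90.7 and 47.0 TPM), and the widest was MFAP4 ABG768_001359 with 6.21, 56.4 and 0.48 TPM. Pigment cells summed to 42.4, 36.9 and 15.7 TPM, liver genes to 124, 158 and 79.1 TPM, and gut and pancreas genes to 7.94, 10.1 and 4.38 TPM, with 24 of the 40 gut and pancreas loci at 0 in all fish.

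Annotated pathways were led by the same loci. KEGG terms were carried by 10462 loci, which held 71.2%, 72.7% and 68.5% of transcripts. Of the 358 pathways with at least 5 loci, 39 held 1% or more and 8 held 10% or more, and a locus counts in every pathway it carries. Motor proteins came first with 26.2%, 23.1% and 27.9% (25.7% ± 2.5, SD, n = 3), led by acta1, mylpfa and MYH1s. Ribosome followed with 17% ± 1.2, and Coronavirus disease with 16.9% ± 1.2 through the same ribosomal proteins. Cardiac muscle contraction (11.1%), Hypertrophic cardiomyopathy (10.2%), Dilated cardiomyopathy (10.2%) and Adrenergic signaling in cardiomyocytes (10.2%) each drew 82.3% to 90% of their transcripts from 3 loci, acta1, TPM1 and atp2a1. Arginine and proline metabolism (10.1%) drew 98.9% from 3 creatine kinase loci. Salmonella infection (6.73%), Alzheimer disease (6.50%), Diabetic cardiomyopathy (6.26%), Pathways of neurodegeneration (4.91%) and Shigellosis (4.79%) were led by mylpfa, gapdh or atp2a1. Glycolysis / Gluconeogenesis (4.79%) and Focal adhesion (4.31%, mostly mylpfa and its relatives) completed the first 15.

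Among pathways with at least 10 loci tested, those with the highest share of called loci were those that hold keratins, chemokines and globins. In Staphylococcus aureus infection 13 of 33 tested loci were called (39.4%), and in African trypanosomiasis 6 of 19 (31.6%). ECM-receptor interaction held 0.172%, 0.311% and 0.0838% of transcripts, with 8 of 69 called (11.6%). At the other end, Ribosome had 2 of 134 called (1.49%) and Citrate cycle 0 of 30. Receptors of the senses were near silent: 279 loci were annotated as olfactory receptors and 0 of them reached a mean of 1 TPM.

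By chromosome, transcripts were uneven. Chromosome 3 held 19%, 18.4% and 19.6% of them with 7% of the loci, and chromosome 5 held 12.9%, 11.5% and 17.2% with 5% of the loci. The first carries 2 parvalbumins, mylpfa and the globins, and the second carries CKM, ak1 and the main MYH1s cluster.

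A second measure of spread, the biological coefficient of variation (BCV), was estimated from counts. It estimates the relative SD between fish after counting error is taken off. The value of each locus was drawn toward that of loci of similar level, so it is not the observed spread of that locus alone. This also holds for the group medians below. The common BCV was 0.326 over 12337 loci and 0.245 when WT3 was left out, against 0.353 without WT1 and 0.367 without WT2. The loci entering that estimate needed counts in every fish, so 521 of the 815 called loci had no BCV. Among groups, the median BCV was 0.535 for keratins, 0.619 for the other skin genes and 0.530 for haemoglobin and red cell genes. It was 0.345 for ribosomal proteins, 0.346 for glycolysis and 0.338 for oxidative phosphorylation, against 0.297 over all loci tested. The BCV was taken after TMM scaling, so the value for ribosomal proteins turns with that scaling. With it 91.8% of them were highest in WT3, whereas in TPM 95 of 98 varied by less than 2-fold.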

How the data were processed

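Total RNA from 3 wild-type fish (1 library per fish) was sequenced as poly(A) libraries, paired-end, by the authors, who removed adaptors and low-quality reads and aligned the rest to the assembly GCA_040182925.1. The aligner and the counting tool are not given in the sources used here. The authors deposited TPM, scaled to an equal sum per library, and estimated counts, which are not scaled; 94.3% of the estimated counts were whole numbers. FPKM was not used. The 6 columns per table of mutant fish and the authors' group means were not used. Locus tags were matched to RefSeq's table of the same assembly for coordinates (28228 of 28228).

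Shares are TPM divided by 10000 and are given with their SD over 3 fish. Symbols were the Swiss-Prot gene names of the table, otherwise its KEGG names. They were matched to 38 gene lists. The members and lists were chosen with earlier results of these data known, and list patterns were tidied after the symbols were seen. Loci with a mean of at least 1 TPM were called where the highest over the lowest TPM + 1 was at least 4. Named loci were the 30 most abundant, up to 4 most abundant and up to 4 widest called members per list, the 20 widest with a mean of at least 10 TPM, 15 pathways and runx2b. Others were chosen after their values were seen. BCV was estimated with edgeR 4.0.16 (estimateDisp, intercept only, filterByExpr, TMM) in R 4.3.3 on rounded estimated counts, and the procedure was tested on simulated data. No p-values were computed. Shares and ranges were computed with pandas 2.3.3 and numpy 2.4.6 (Python 3.11.15), and figures drawn with matplotlib 3.10.9. Alternatives were other pseudocounts, filters and scalings, shares of counts, annotated loci only and each fish left out; 4 alternatives were added after seeing the data (at least 10 or at least 100 counts in some fish, counts scaled to library size, and slow or cardiac thick filament loci counted as slow). Precision is limited by 3 fish and, at low TPM, by few counts.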

Additional observations from a re-analysis of the deposited data

How the results depend on the processing

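Shares by counts, not scaled for length, differed from shares by TPM. Muscle and energy classes held 64.1% of TPM and 68.7% of estimated counts, and Motor proteins 25.7% and 32%. The share of the 10 most abundant loci was 42.7% of TPM, 43.8% of estimated counts and 43.7% of the TPM of annotated loci, and ran from 39.2% to 44.6% with each fish left out. The same omission moved the muscle and energy classes from 61.7% to 65.7%, Motor proteins from 24.6% to 27.0% and the skin class from 0.151% to 0.359%. The number of loci called, 815, became 1721 with a pseudocount of 0.1, 224 with a pseudocount of 5, 243 with a mean of at least 10 TPM, 3656 at 2-fold, and 224 to 543 with 1 fish left out, lowest without WT3. Fewer loci or fish were compared under the filter and the omissions; why the number was lowest without WT3 was not tested. With at least 100 counts in some fish, chosen after seeing the data, 347 were called. The number stayed within 1.5-fold with no filter (815, since a 4-fold range of TPM + 1 needs a mean of 1 TPM), TMM scaling (717), annotated loci (560), at least 10 counts (580) and counts scaled to library size (571). The common BCV ran from 0.245 to 0.367 with 1 fish left out and was 0.326 with RLE size factors and 0.403 with no filter. Of the 20 widest loci, 6 fell under 4-fold in counts scaled to library size, and 0 did so with the other pseudocounts or TMM scaling. No paired analysis was possible because a single group was described.

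Depth limited the low end. Of the 815 called loci, 235 had fewer than 10 counts in every fish, and 36 loci with a mean of at least 10 TPM did.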

Other observations

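Loci annotated as fish lectins were among the widest outside the lists. Of 38 loci without a gene name whose best protein hit is a ladderlectin or nattectin, 12 had a mean of at least 1 TPM and all 12 were called, a group put together after the values were seen. They summed to 1324, 1147 and 30.7 TPM in WT1, WT2 and WT3, so that the fish lowest for keratins was also lowest here. MSTRG.7049 had 500, 393 and 3.12 TPM and ABG768_008106 on chromosome 15 had 348, 396 and 5.96 TPM.

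Genes of the non-muscle actin cytoskeleton, of the S100, annexin and gelsolin families and of iron storage were also lowest in WT3 in sum under either scaling. Some annexins, such as ANXA1 ABG768_022940 and ANXA2 ABG768_018334, are members of the skin list as well. The cytoskeleton list summed to 3724, 3396 and 1433 TPM with 7 of 54 called, led by the actin actbb and the actin-binding peptide TMSB4. S100A4, a calcium-binding protein, had 1368, 1453 and 499 TPM, and 11 of 32 members of its list were called (34.4%, against 6.67% of all loci). Ferritin heavy chain FTH1 ABG768_024722 had 978, 872 and 307 TPM. Of the 5 iron storage loci 3 were lowest in WT3 and 2 in WT1, such as FTH1 ABG768_017783 with 41.9, 53.9 and 45.45 TPM.

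Immediate early and stress genes were highest in WT1 in sum, at 1187, 671 and 690 TPM. Of 49 members tested 33 were highest in WT1, 10 in WT2 and 6 in WT3, while 4212 of all 12217 loci tested were highest in WT1. Called were 3 of 49 (6.12%, against 6.67% of all loci), 2 of them highest in WT1 and 1 in WT3. Among the members, fos had 93.6, 34.5 and 27.2 TPM and junb had 95.8, 36.4 and 31.9 TPM. Subunits of the proteasome, which degrades tagged proteins, summed to 1910, 1120 and 1553 TPM. Of 45 subunits tested, 35 were lowest in WT2, as were 8.68% of all loci tested. Under TMM scaling the list of atrophy and proteolysis genes that holds them was highest in WT3 and still lowest in WT2. Of 26 circadian genes 5 were called (19.2%). CRY1 ABG768_001492 and nfil3 ABG768_023742 were lowest in WT3 with 21.1, 32.8 and 2.69 TPM and 6.10, 17.8 and 0.31 TPM, while NR1D1 and PER3 were highest there with 1.18, 0.59 and 14.8 TPM and 1.62, 1.05 and 11.5 TPM. The time of sampling of each fish is not given in the sources used here.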
